A study of Mus musculus with 4 samples.

Results

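Molecular chaperones and co-chaperones were followed in mouse embryonic stem cells (ESCs) that were wild type (WT) or knocked out for Naa10 (Naa10-KO), the catalytic subunit of the NatA complex that acetylates protein N-termini. The genes were chosen by symbol and not by any measured value. They are the HSP70, HSP90, HSP110 and small heat shock protein genes, Hspd1 and Hspe1, the DNAJA, DNAJB and DNAJC genes, the CCT subunits with Tcp1, the prefoldins, the BAG genes, and the heat shock factors Hsf1 and Hsf2. The rule found 82 of the 14099 rows of the expression tables, in 12 families. Of these, 79 reached 1 RPKM in 2 or more libraries and entered the test. RPKM are read counts scaled to the length of the gene and to the size of the library, so levels can be set side by side between genes. The rows below that filter were Dnajc28, Dnajc5g and Hspb2. A joined row carries a member with another gene in 3 cases, namely Dnaja1 with Mir207, Dnajc4 with Vegfb, and Pfdn5 with Myg1, and such a row cannot be split between its genes.

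There were 4 poly-dT selected RNA libraries, 2 from WT ESCs and 2 from Naa10-KO ESCs. Both genotypes were C57BL/6-JF1 F1 hybrids from the inner cell mass of blastocysts, out of C57BL/6 mothers that carried 1 Naa10 knockout allele and WT JF1 fathers, and the WT cells were littermates of the knockouts. All were kept in N2B27 medium with the Mek inhibitor PD325901, the Gsk3 inhibitor Chir99021 and LIF, for 5 passages on irradiated fibroblast feeders (MEF) and then 5 passages without. The labels call the libraries biological replicates but do not say whether each is a separate line, nor give the sex of the lines, so p-values reflect only how far these libraries differ among themselves, which may be technical.

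The Naa10 row, which is joined with its neighbour Renbp, fell, from 105 and 106 RPKM (WT) to 28.9 and 34.4 RPKM (Naa10-KO), with a log2 difference of -1.71 (SE 0.11, limma adjusted p = 0.0342). The difference was as large without either WT library, but the adjusted p was then 0.367 without replicate 1 and 0.356 without replicate 2. At 30.1% of WT, the reads that remained in the row cannot be split between Naa10 and Renbp. The 10 ESC markers were present in every library, with a summed level of 4978, 5064, 4233 and 5116 RPKM in WT replicates 1 and 2 and Naa10-KO replicates 1 and 2, to which the joined row of Dppa5a and Ooep gave the most. The Naa10-KO libraries parted here too, with 7 of the 10 below both WT libraries in replicate 1 and 8 above both in replicate 2. The sum over 12 fibroblast markers, none of them at 0, was 142, 148, 534 and 103 RPKM in the same order, so that Naa10-KO replicate 1 stood apart. It exceeded both WT libraries in 11 of the 12, whereas Naa10-KO replicate 2 lay below both in 10. Tagln at 192 RPKM and Acta2 at 132 RPKM gave the most to the sum in Naa10-KO replicate 1. Postn and Lum stood there at 104% and 79.8% of the WT mean, the lowest of the 12. Summed trophoblast markers (7 of 8 listed genes in the tables) were at 52.6, 44.7, 103 and 88.3 RPKM, and 8 primitive endoderm markers summed to between 8.40 and 11.4 RPKM. The part of these other cells in the results was not tested, and in bulk RNA fewer cells of a type and less RNA per cell cannot be told apart.

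Chaperones bind unfolded or partly folded proteins and keep them from aggregating. HSP70 proteins bind short exposed stretches in a cycle driven by ATP, J-domain proteins (DNAJ) bring them clients and start ATP hydrolysis, and HSP110 and BAG proteins exchange the nucleotide. HSP90 takes over clients at a later stage, and prefoldin hands actin and tubulin to the ring-shaped chaperonin CCT. Heat shock factor 1 (HSF1) drives many of these genes under stress, and the unfolded protein response does so for the members that work in the endoplasmic reticulum (ER). Stem cells are known for high levels of cytosolic chaperones.

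Promoter sequence is shown for the members on which the comparison turns, the heat-inducible pair Hspa1a and Hspa1b, the pair Hspe1 and Hspd1 by way of Hspe1, and the ER members Hspa5, Hsp90b1 and Dnajc3. The sequences are from RefSeq on GRCm38.p6, whereas the expression tables were made on mm9, for which no coordinates are given. Each line holds the 250 bases before the annotated start, 5' to 3' on the gene's strand, and capitals mark matches to a searched motif. Hspa1a is at chr17:34972157-34972406, minus strand. Hspa1b is at chr17:34959239-34959488, minus strand. Hspe1 is at chr1:55087898-55088147, plus strand. Hspa5 is at chr2:34771840-34772089, plus strand. Hsp90b1 is at chr10:86705445-86705694, minus strand. Dnajc3 is at chr14:118937682-118937931, plus strand.
Hspa1a: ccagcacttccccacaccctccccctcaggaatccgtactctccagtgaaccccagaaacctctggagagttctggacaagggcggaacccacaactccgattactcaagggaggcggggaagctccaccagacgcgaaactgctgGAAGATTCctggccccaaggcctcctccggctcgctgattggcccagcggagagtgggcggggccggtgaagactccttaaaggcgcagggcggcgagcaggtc
Hspa1b: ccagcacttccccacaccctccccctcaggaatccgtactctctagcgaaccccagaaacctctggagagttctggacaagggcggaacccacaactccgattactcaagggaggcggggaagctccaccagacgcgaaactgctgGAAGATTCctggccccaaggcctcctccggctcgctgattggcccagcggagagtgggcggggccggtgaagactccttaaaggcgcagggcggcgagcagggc
Hspe1: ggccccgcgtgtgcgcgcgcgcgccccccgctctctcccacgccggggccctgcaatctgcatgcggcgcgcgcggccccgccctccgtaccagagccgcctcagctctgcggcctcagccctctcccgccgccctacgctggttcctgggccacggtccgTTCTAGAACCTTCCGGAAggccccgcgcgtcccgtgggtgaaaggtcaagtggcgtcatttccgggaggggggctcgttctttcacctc
Hspa5: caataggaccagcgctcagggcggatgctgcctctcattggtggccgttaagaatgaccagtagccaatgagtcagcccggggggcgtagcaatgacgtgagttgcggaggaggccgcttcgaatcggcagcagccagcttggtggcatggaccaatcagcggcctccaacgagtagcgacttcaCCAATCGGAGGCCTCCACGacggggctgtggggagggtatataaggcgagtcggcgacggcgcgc
Hsp90b1: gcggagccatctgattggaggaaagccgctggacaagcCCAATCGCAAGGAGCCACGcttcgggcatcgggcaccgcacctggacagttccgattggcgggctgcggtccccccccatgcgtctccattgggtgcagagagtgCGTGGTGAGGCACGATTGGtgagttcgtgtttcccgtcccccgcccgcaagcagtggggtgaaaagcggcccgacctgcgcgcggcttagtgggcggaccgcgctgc
Dnajc3: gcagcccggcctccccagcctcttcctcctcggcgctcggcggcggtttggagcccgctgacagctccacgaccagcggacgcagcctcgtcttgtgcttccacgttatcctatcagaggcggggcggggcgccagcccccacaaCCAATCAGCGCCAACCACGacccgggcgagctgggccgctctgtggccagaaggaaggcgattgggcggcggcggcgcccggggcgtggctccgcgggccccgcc
In Hspa1a and Hspa1b the capitals mark a head-to-head pair of HSF1 binding units, GAANNTTC, 104 bases before the start in both. In Hspe1 they mark 2 overlapping copies, 1 on each strand, of the longer element of 3 units, GAANNTTC followed after 2 bases by a further GAA, which holds the shorter one. In Hspa5, Hsp90b1 and Dnajc3 they mark the ER stress element (CCAAT and CCACG with 9 bases of any kind between them), with 1 copy in Hspa5 and Dnajc3 and 2 in Hsp90b1.

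The promoters of Hspa1a and Hspa1b differed at 3 of these 250 bases. Motifs were searched on both strands in a window of 300 bases, 250 before and 50 after each start, for 65 of the 82 members that had an entry (86 promoters). GAANNTTC was in 17 of the 86 member promoters (19.8%) and in 7.86% of all 32851 promoters. The element of 3 units was in 6 of the 86, those of Hspd1, Hspe1, Hsph1 and Dnajb6, and in 0.603% of all promoters. The matched windows of Hspd1 and Hspe1 overlap, as do those of the different starts of Hsph1 and of Dnajb6. The same site can therefore count in several promoters. The ER stress element was in 3 of the 86, those of Hspa5, Hsp90b1 and Dnajc3, and in 0.119% of all promoters. A match describes letters and does not show that a factor binds, and a promoter without a match lacks only these letters in this window.

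No chaperone row passed the threshold of an adjusted p under 0.05 between Naa10-KO and WT, 0 of 79, against 0.764% of the 11912 rows tested. The test was limma on log2(RPKM + 1), two-sided, with Benjamini-Hochberg adjustment over all tested rows, a scale that shrinks the differences of low genes. The smallest adjusted p among the members was 0.0922, for Hsp90b1. At an unadjusted p under 0.05 there were 22 members (27.8%), 5 higher and 17 lower in Naa10-KO, against 22.1% of all rows, 8.9% higher and 13.2% lower. The unadjusted count was 4 or 3 without 1 WT library, and 42 or 45 without 1 Naa10-KO library. Leaving out Naa10-KO replicate 1 or replicate 2, with the lone library assumed to vary like the WT pair, put 34 or 42 members past the threshold, against 41.5% and 59.4% of all rows, and 25 members passed both times. An exact permutation test of 2 libraries against 2 cannot go below p = 0.333.

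By direction, a larger share of the chaperones than of all rows lay below WT and a smaller share above it. Whether the set differs from all rows was not tested. The fitted difference was below 0 for 52 members (65.8%), against 57.3% of all rows, and above 0 for 27, against 42.7%. The median log2 difference over the 79 members was -0.10 for replicate 1 and -0.09 for replicate 2, beside -0.08 and -0.02 over all rows. In replicate 1, 45 members (57%) lay below both WT libraries, against 54.6% of all rows, and 24 (30.4%) above both, against 38.3%. In replicate 2, 47 (59.5%) lay below both, against 48.3%, and 22 (27.8%) above both, against 41.8%. Both Naa10-KO libraries lay below both WT libraries for 35 members (44.3%, background 34.9%) and above both for 12 (15.2%, background 24.4%). Of the 79, 14 were below both with a mean under 80% of WT (background 20.6%) and 7 above both with a mean over 120% of WT (background 16.1%). Only Hspa1a, Hspa1b and Hspa1l were below both with a mean under 40% of WT, a size met by 1.86% of all rows.

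**Figure D1:**
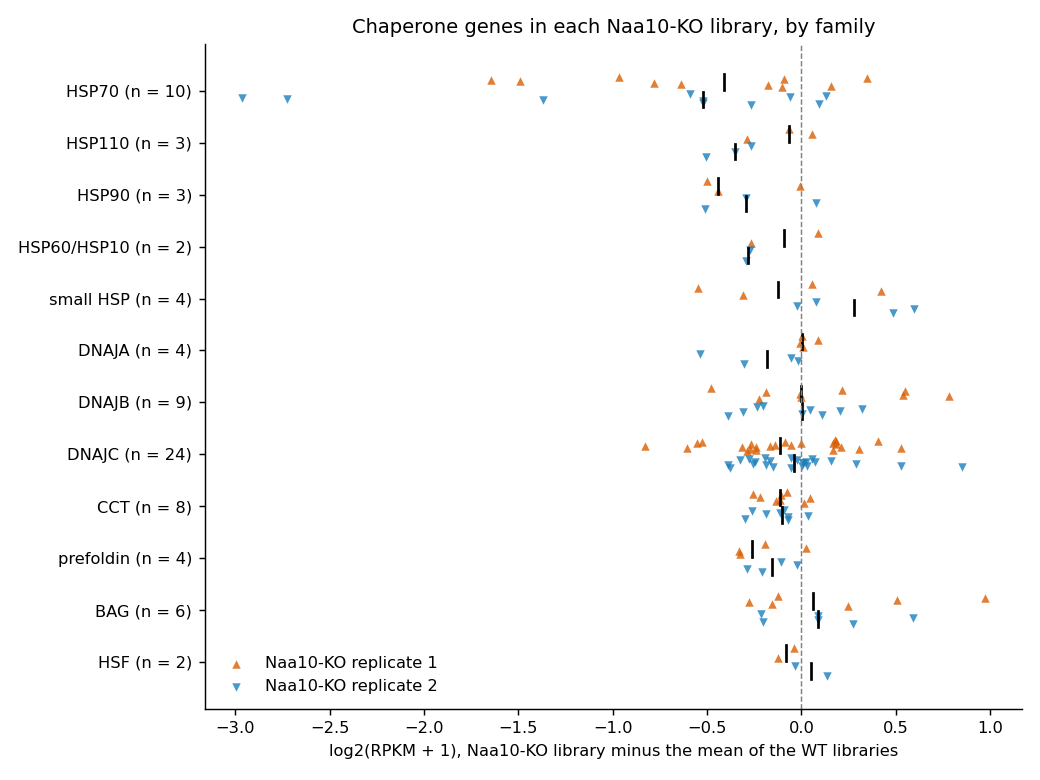
Log2(RPKM + 1) difference from the WT mean for every tested chaperone row, by family, with 1 point per row for Naa10-KO replicate 1 and 1 for replicate 2, and a black bar at each library's family median. The HSP70 row set reaches lowest through Hspa1a, at -1.65 and -2.97, while the CCT points of both libraries lie close together near 0.

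The heat shock factors themselves differed little. Hsf1, the master activator of the heat shock response, stood at 21.6 and 23.2 RPKM (WT) against 21.8 and 21.8 RPKM (Naa10-KO; log2 difference -0.04, 95% interval -0.28 to 0.20, limma adjusted p = 0.811). Hsf2, a related factor that can form trimers with Hsf1, stood at 23.1 and 26.2 RPKM (WT) against 22.4 and 27.1 RPKM (Naa10-KO; log2 difference 0.01, interval -0.37 to 0.39). The groups overlapped for both genes. Their RNA does not report the activity of HSF1, which is set largely by its protein state.

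Among the 79 tested members, the heat-inducible HSP70 genes were the lowest relative to WT. Hspa1a stood at 29.7 and 32.7 RPKM (WT) against 9.28 and 3.12 RPKM (Naa10-KO replicates 1 and 2), a mean of 31.2 ± 2.15 (SD, n = 2) against 6.197 ± 4.35 (SD, n = 2). Hspa1b, which encodes almost the same protein, was at 30.6 and 34.1 RPKM against 10.8 and 4.04 RPKM. The groups did not overlap for either gene, replicate 2 was the lowest in both, and the Naa10-KO mean was 19.9% and 23.0% of WT. The differences were -2.31 (SE 0.48) for Hspa1a and -2.11 (SE 0.45) for Hspa1b on the log2 scale, with limma adjusted p = 0.134 and 0.136, so neither passed the threshold. Hspa1l, a neighbour of Hspa1a expressed chiefly in testis, stood at 2.48 and 2.82 RPKM (WT) against 1.12 and 0.411 RPKM (Naa10-KO; log2 difference -1.08, adjusted p = 0.141).

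These 3 genes are not independent measurements. Of all 50-base windows of the Hspa1a transcript, 58.8% occur in the Hspa1b transcript, and 62.3% of those of Hspa1b occur in Hspa1a (GENCODE transcripts). Hspa1l shares 9.57% of its windows with Hspa1a. The sources used here do not say how the authors' counting split reads between the copies, so the 3 values are uncertain as separate genes. No such window of the 3 genes occurs in Hspa8 or Hspa2. The Hspa1a and Hspa1b promoters shown above, alike but for 3 bases, carry the same GAANNTTC match.

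The other HSP70 genes split between a dominant constitutive gene that was slightly higher and several that were lower. Hspa8, the constitutive cytosolic HSP70 and the 18th most abundant row of the table, stood at 3078 and 3180 RPKM (WT) against 3492 and 3339 RPKM (Naa10-KO). Both Naa10-KO values lay above both WT values, by a log2 difference of 0.13 (95% interval -0.07 to 0.33, limma adjusted p = 0.368). The summed level of the HSP70 family, which Hspa8 dominates, was 3798 and 3932 RPKM (WT) against 4122 and 3870 RPKM (Naa10-KO), and the groups overlapped. Hspa1a amounted to 0.00964 and 0.0103 of the Hspa8 level in the WT libraries, and to 0.00266 and 0.000934 of it in the Naa10-KO libraries.

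Hspa2, an HSP70 best known from spermatogenesis, stood at 7.10 and 6.03 RPKM (WT) against 3.84 and 4.25 RPKM (Naa10-KO; log2 difference -0.58, limma adjusted p = 0.142). Hspa12a, a distant relative with an unusual ATPase domain, was at 3.66 and 2.95 RPKM against 1.20 and 1.85 RPKM (-0.78, adjusted p = 0.152). For both, each Naa10-KO library lay below each WT library. Hspa13, a microsomal relative also called STCH, was on the other side, at 7.23 and 7.44 RPKM against 9.59 and 8.11 RPKM (0.24, the highest of the family). Hspa14, the HSP70 of the ribosome-associated complex, was at 61.2 and 62.5 RPKM against 57.9 and 59.3 RPKM (-0.08). Across the 10 HSP70 rows the median difference was -0.47, with 8 below both WT libraries (34.9% of all rows) and 2 above both (24.4% of all rows) in both Naa10-KO libraries. Without Hspa1a, Hspa1b and Hspa1l the median over the other 7 was -0.18.

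**Figure D2:**
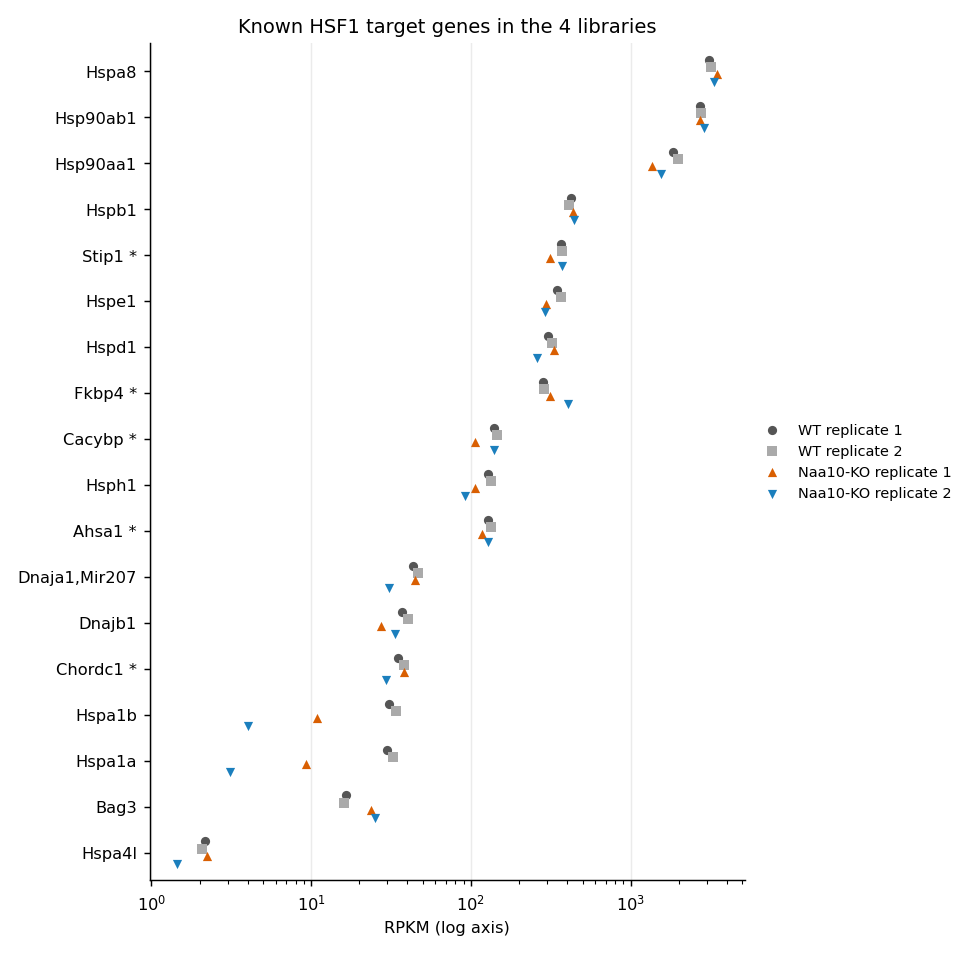
RPKM on a log axis of known HSF1 target genes in the 2 WT and 2 Naa10-KO libraries, 1 point per library, ordered by level, with an asterisk on genes outside the chaperone rule. Hspa1a and Hspa1b are widely separated between the genotypes, whereas Hspa8 and Hsp90ab1, the most abundant of them, are nearly superimposed and Bag3 lies on the opposite side.

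Other known HSF1 targets lay on both sides of WT. A list of 18 known HSF1 targets, 13 of them members, had 0 rows past the threshold and 6 at an unadjusted p under 0.05 (22.1% of all rows), with 5 means higher, 13 lower and a median difference of -0.14 (all rows -0.06). Both Naa10-KO libraries lay below both WT libraries for 7 of the 18 (34.9% of all rows) and above both for 4 (24.4% of all rows), shares near the background. Bag3, an HSF1 target that couples HSP70 to selective autophagy, stood at 16.5 and 16.1 RPKM (WT) against 23.6 and 25.1 RPKM (Naa10-KO; log2 difference 0.55, SE 0.09, limma adjusted p = 0.103). Its difference was the highest of all tested members on the log2(RPKM + 1) scale, while as a share of the WT mean its 149% lay below the 172% of Bag2, the 159% of Hspb6 and the 151% of Dnajc30. The groups did not overlap. Dnajb1, the J-domain partner of inducible HSP70, stood at 37.2 and 40.2 RPKM (WT) against 27.5 and 33.5 RPKM (Naa10-KO; log2 difference -0.34, adjusted p = 0.235), with no overlap. Among the 5 targets outside the rule, 4 means were lower and 1 higher (57.3% and 42.7% of all rows), with a median of -0.12. The higher one was Fkbp4, an HSP90-binding immunophilin, at 281 and 287 RPKM against 311 and 405 RPKM (0.32, limma adjusted p = 0.298).

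Hsph1, the HSP110 that exchanges nucleotide on HSP70, stood at 127 and 134 RPKM (WT) against 107 and 91.6 RPKM (Naa10-KO; log2 difference -0.40, limma adjusted p = 0.157). The groups did not overlap. Hspa4, a second HSP110, stood at 210 and 217 RPKM (WT) against 204 and 177 RPKM (Naa10-KO; log2 difference -0.17), also without overlap. Hspa4l, the third HSP110, was at 2.17 and 2.07 RPKM against 2.24 and 1.44 RPKM, and there WT lay between the Naa10-KO libraries. The family median was -0.17, with -0.07 in replicate 1 and -0.35 in replicate 2.

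The cytosolic HSP90 genes, the stress-responsive Hsp90aa1 and the constitutive Hsp90ab1, stood in different positions. Hsp90aa1 stood at 1841 and 1976 RPKM (WT) against 1350 and 1558 RPKM (Naa10-KO), a mean of 1908 ± 95.7 (SD, n = 2) against 1454 ± 147 (SD, n = 2). Both Naa10-KO libraries lay below both WT libraries, with a log2 difference of -0.39 (SE 0.10, limma adjusted p = 0.158). Hsp90ab1 stood at 2714 and 2757 RPKM (WT) against 2721 and 2885 RPKM (Naa10-KO; log2 difference 0.03, 95% interval -0.17 to 0.23), and the groups overlapped. The ratio of Hsp90aa1 to Hsp90ab1, within each library and per length, was 0.678 and 0.717 in WT and 0.496 and 0.540 in Naa10-KO. The HSP90 family sum was 4911 and 5088 RPKM (WT) against 4332 and 4693 RPKM (Naa10-KO).

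The major ER chaperones were lower in both Naa10-KO libraries. Hsp90b1, the ER form of HSP90 also known as GRP94, stood at 356 and 355 RPKM (WT) against 261 and 250 RPKM (Naa10-KO). Its Naa10-KO mean was 71.8% of WT and the groups lay far apart relative to their spread, with a log2 difference of -0.48 (SE 0.06, 95% interval -0.65 to -0.30, limma adjusted p = 0.0922). Hspa5, the ER HSP70 also known as BiP, stood at 288 and 304 RPKM (WT) against 261 and 206 RPKM (Naa10-KO; log2 difference -0.35, adjusted p = 0.252). The groups did not overlap, and replicate 2 was the lower. Among their J-domain partners, Dnajb9, which acts on BiP and on the ER stress sensor IRE1, stood at 41.5 and 41.0 RPKM (WT) against 35.2 and 31.2 RPKM (Naa10-KO; log2 difference -0.31, adjusted p = 0.184). Dnajc3, which holds back the kinases that phosphorylate eIF2 alpha and assists BiP in the ER lumen, stood at 9.14 and 8.50 RPKM (WT) against 7.32 and 7.62 RPKM (Naa10-KO; log2 difference -0.21, adjusted p = 0.315). Both genes were below both WT libraries in both Naa10-KO libraries. The members with a match to the ER stress element, Dnajc3, Hspa5 and Hsp90b1, were on that side, as were 34.9% of all rows. The Dnajb9 promoter has no such match in the searched window, and a link between match and level was not tested. Dnajb11, another BiP partner, lay above both WT libraries in replicate 1 and below both in replicate 2.

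A list of ER folding and unfolded protein response genes had 19 of 20 symbols in the tables, 5 of them members, and 0 past the threshold, with 7 at an unadjusted p under 0.05 (22.1% of all rows). The means of 17 were lower and of 2 higher (57.3% and 42.7% of all rows), with a median of -0.21, and both Naa10-KO libraries were below both WT libraries for 9 (34.9% of all rows). Pdia6, a disulfide isomerase, stood at 142 and 141 RPKM (WT) against 107 and 111 RPKM (Naa10-KO; log2 difference -0.37, limma adjusted p = 0.116). Xbp1, the transcription factor that IRE1 activates by splicing, was at 13.4 and 14.96 RPKM against 23.7 and 19.9 RPKM (0.58, adjusted p = 0.140), the highest of the list. So the list held rows on both sides of WT.

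Mitochondrial folding genes showed small differences. Hspe1, the lid of the mitochondrial chaperonin, stood at 348 and 368 RPKM (WT) against 297 and 291 RPKM (Naa10-KO; log2 difference -0.28, limma adjusted p = 0.145). Hspd1, the chaperonin ring itself, stood at 302 and 321 RPKM (WT) against 331 and 258 RPKM (Naa10-KO; log2 difference -0.09). The Naa10-KO libraries were both below WT for Hspe1 and on either side of it for Hspd1. Both promoters carry the longer heat shock element, at the same site, since their windows overlap on opposite strands. The ratio of Hspd1 to Hspe1 was 0.870 and 0.873 in WT and 1.12 and 0.888 in Naa10-KO. Hspa9, the mitochondrial HSP70, was at 290 and 299 RPKM against 274 and 245 RPKM (-0.18, adjusted p = 0.292). In the list of 14 mitochondrial folding and protease genes, 0 passed the threshold, 12 means were lower and 2 higher (57.3% and 42.7% of all rows), with a median of -0.13. The protease subunit Clpp was the highest, at 48.0 and 50.04 RPKM (WT) against 68.9 and 61.6 RPKM (Naa10-KO; log2 difference 0.40).

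The CCT subunits gave the closest match between the Naa10-KO libraries of any family. The median distance between these libraries was 0.02 on the log2 scale, beside 0.25 over all rows. Between the WT libraries it was 0.08 for CCT, beside 0.05 over all rows. All rows include many of lower level than CCT, and the part of level in this closeness was not tested. Of the 8 subunits, 6 lay below both WT libraries in both Naa10-KO libraries (34.9% of all rows) and none above (24.4% of all rows), with a family median of -0.10 and 0 past the threshold. Cct3 was the lowest, at 258 and 273 RPKM (WT) against 222 and 221 RPKM (Naa10-KO; log2 difference -0.26, 95% interval -0.44 to -0.08, limma adjusted p = 0.153). Cct6a was the highest, at 278 and 292 RPKM against 294 and 291 RPKM (0.04, interval -0.14 to 0.22). Tcp1, which encodes the alpha subunit, was at 171 and 181 RPKM against 178 and 167 RPKM (-0.03). The complex holds 1 copy of each subunit per ring, and the summed level of the 8 was 2052 and 2150 RPKM (WT) against 1948 and 1922 RPKM (Naa10-KO).

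Prefoldin, which delivers actin and tubulin chains to CCT, had 4 rows under the symbol rule. Of these, 3 lay below both WT libraries in both Naa10-KO libraries (34.9% of all rows). Pfdn2 stood at 89.9 and 91.8 RPKM (WT) against 72.1 and 74.1 RPKM (Naa10-KO; log2 difference -0.31, SE 0.07, limma adjusted p = 0.136). Pfdn4 was at 41.2 and 42.2 RPKM against 33.0 and 36.0 RPKM (-0.27). Both lay clear of WT. Pfdn1 was at 74.1 and 78.1 RPKM against 77.4 and 74.7 RPKM, within the WT range. The prefoldin median was -0.21. Among 12 tubulin and actin folding partners outside the rule, 0 passed the threshold, 7 means were lower and 5 higher (57.3% and 42.7% of all rows), with a median of -0.15. Vbp1, a prefoldin subunit that the symbol rule leaves out, was at 57.6 and 62.9 RPKM (WT) against 43.6 and 58.6 RPKM (Naa10-KO). Its replicate 2 value lay within the WT range. Pdrg1, a prefoldin-like protein, was the lowest at 27.0 and 25.1 RPKM (WT) against 19.1 and 12.6 RPKM (Naa10-KO; log2 difference -0.71, adjusted p = 0.191).

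**Figure D3:**
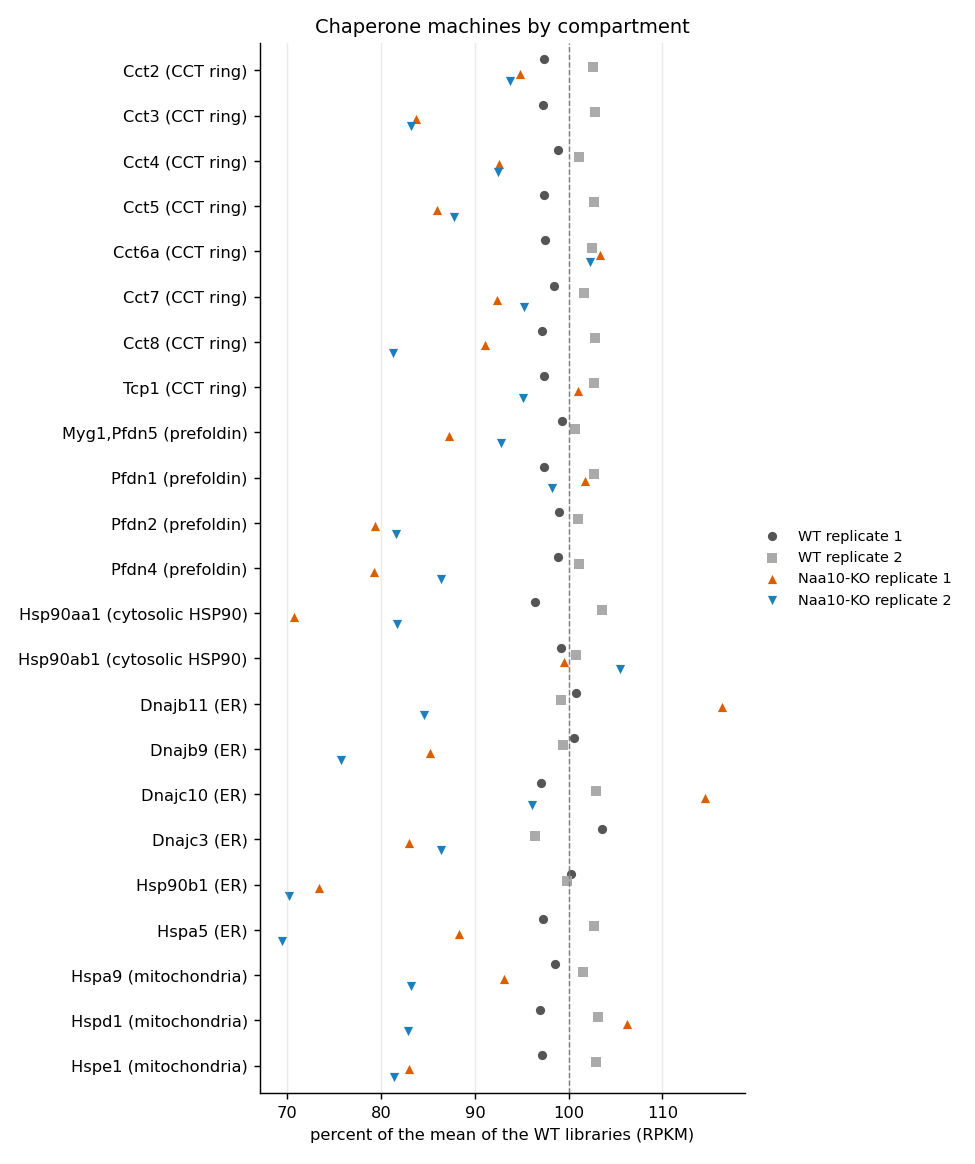
Level of the subunits and members of the large folding machines as percent of the WT mean, 1 point per library for the 2 WT and 2 Naa10-KO libraries, with a dashed line at 100%. Cct3 lies at 83.7% and 83.2% in the Naa10-KO libraries, Pfdn2 and Hsp90b1 are also below both WT libraries, and Cct6a and Hsp90ab1 lie within or next to the WT range.

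The J-domain genes were the largest class, with 37 tested rows, a median of -0.01 and no common direction. Below both WT libraries in both Naa10-KO libraries were 11 of them (34.9% of all rows), and above both were 5 (24.4% of all rows). Dnajc30, a mitochondrial J-domain protein, was the highest, at 6.40 and 6.15 RPKM (WT) against 9.47 and 9.50 RPKM (Naa10-KO; log2 difference 0.53, SE 0.10, limma adjusted p = 0.123). Dnajb12, a J-domain protein of the ER membrane that acts with Hspa8 in degradation, was at 22.02 and 22.1 RPKM against 32.8 and 27.8 RPKM (0.44, adjusted p = 0.154). For Dnajc30 and Dnajb12, each Naa10-KO library lay above each WT library. Dnajc30 overlaps Bud23 on the opposite strand by 758 bases, where reads of the genes cannot be told apart. Dnajc2, the ribosome-associated partner of Hspa14 also known as MPP11, was at 60.3 and 59.9 RPKM against 54.5 and 50.5 RPKM (-0.19, adjusted p = 0.253). Dnajc9, a J-domain protein that also binds histones H3 and H4, was at 37.7 and 37.1 RPKM against 30.4 and 28.6 RPKM (-0.33, adjusted p = 0.145). Both Naa10-KO libraries lay below WT for Dnajc2 and Dnajc9. The 24 tested DNAJC rows ran from -0.41 to 0.53 in log2 difference and the 9 DNAJB rows from -0.34 to 0.44. Of the rows below the filter, Dnajc28 was at 0.908 and 0.832 RPKM against 0.268 and 0.493 RPKM, and Dnajc5g stayed at or under 0.471 RPKM. The DNAJA rows, partners of HSP70 that bind clients directly, had a median of -0.08 (0.01 in replicate 1, -0.18 in replicate 2). All 4 lay below both WT libraries in replicate 2 (48.3% of all rows) and none in replicate 1 (54.6% of all rows). Some were below by little, with Dnaja2 at 96.2% of the WT mean in replicate 2. Dnaja1, in its joined row, stood at 43.3 and 46.5 RPKM (WT) against 44.9 and 30.6 RPKM (Naa10-KO). Dnaja2 was at 76.4 and 79.8 RPKM against 83.1 and 75.2 RPKM, with WT between the Naa10-KO libraries.

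The genes of the ribosome-associated chaperones and nascent chain factors gave a median of -0.12 over 12 rows, with 0 past the threshold, 9 means lower and 3 higher (57.3% and 42.7% of all rows). NatA, which holds Naa10, acts at the ribosome as these factors do. Naca, the alpha subunit of the nascent chain complex, stood at 704 and 727 RPKM (WT) against 619 and 628 RPKM (Naa10-KO; log2 difference -0.20, limma adjusted p = 0.193), with no overlap. The co-chaperones of HSP90 and HSP70 that the rule leaves out had 22 of 23 symbols in the tables, 0 past the threshold, 18 means lower and 4 higher (57.3% and 42.7% of all rows), with a median of -0.13. Sugt1, an HSP90 adaptor for immune receptors and kinetochores, was the lowest, at 56.1 and 57.0 RPKM against 39.0 and 43.7 RPKM (-0.45, adjusted p = 0.129). Fkbp8, a membrane-bound HSP90 partner on mitochondria, was the highest, at 81.9 and 83.0 RPKM against 96.5 and 111 RPKM (0.32, adjusted p = 0.178).

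The BAG genes, nucleotide exchange factors of HSP70, and the small heat shock proteins, which hold unfolded clients without ATP, had the only positive family medians beside DNAJB, at 0.08, 0.08 and 0.05. That of the small heat shock proteins was -0.13 in Naa10-KO replicate 1 alone and 0.28 in replicate 2, and that of DNAJB was 0.00 in each. Bag6, which guides membrane proteins and misfolded chains in the cytosol, stood at 108 and 107 RPKM (WT) against 127 and 130 RPKM (Naa10-KO; log2 difference 0.26, limma adjusted p = 0.148), with no overlap. Bag5 was the lowest of the family, at 4.80 and 4.73 RPKM against 4.18 and 3.997 RPKM (-0.18). The 6 BAG rows thus ran from -0.18 to 0.55, with Bag3 at the top. Hspb1, also called HSP25, was by far the most abundant small heat shock protein, at 422 and 412 RPKM (WT) against 434 and 440 RPKM (Naa10-KO; log2 difference 0.07, 95% interval -0.10 to 0.24). Hspb6, a small heat shock protein best known from muscle, was at 2.33 and 2.73 RPKM against 3.72 and 4.34 RPKM (0.51, adjusted p = 0.164). For both, each Naa10-KO library lay above each WT library. Hspb11, now known as the intraflagellar transport protein IFT25, was at 16.8 and 17.6 RPKM against 11.5 and 16.9 RPKM (-0.29). Hspb2 was listed at 0 in 3 libraries and at 3.55 RPKM in WT replicate 2. An exact 0 in these tables can be a failed estimate, since the abundant elongation factor gene Eef1a1 was listed at 0 in Naa10-KO replicate 2 and at 6218 RPKM in replicate 1, so no fold is given. It overlaps Cryab on the opposite strand, and no strand-specific protocol is stated, so reads of the pair cannot be told apart.

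The Naa10-KO libraries lay furthest apart for Hspa1a and Hspa1b, by 1.32 and 1.23 on the log2 scale, although both libraries were below WT for each gene. Some other members separated the Naa10-KO libraries from each other rather than from WT. Over the 79 tested members the median distance between the Naa10-KO libraries was 0.18 on the log2 scale, and 0.06 between the WT libraries (0.25 and 0.05 over all rows). Bag2, an inhibitor of the ubiquitin ligase CHIP, stood at 2.53 and 2.31 RPKM (WT) against 5.71 and 2.63 RPKM (Naa10-KO replicates 1 and 2). Dnajb5, a J-domain protein found in heart muscle, was at 10.6 and 9.54 RPKM against 18.0 and 10.1 RPKM. Dnajb4 was at 0.999 and 1.17 RPKM against 2.02 and 0.677 RPKM. Bag2, Dnajb5 and Dnajb4 were highest in replicate 1, in which the fibroblast markers summed to 534 RPKM, with the most from Tagln and Acta2. Cryab, a small heat shock protein outside the rule that was picked after its values were seen, stood at 12.4 and 11.2 RPKM (WT) against 40.2 and 14.3 RPKM (Naa10-KO). The part of fibroblast RNA in these values was not tested.

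Other members were highest in replicate 2, in which the fibroblast markers were below WT. Dnajc6, the auxilin that uncoats clathrin vesicles with Hspa8, stood at 3.52 and 3.64 RPKM (WT) against 2.79 and 7.27 RPKM (Naa10-KO replicates 1 and 2). Hspb8, the small heat shock partner of Bag3, was at 17.8 and 17.0 RPKM against 13.8 and 24.8 RPKM. For both, 1 Naa10-KO library lay on each side of WT, so the group mean describes neither. Dnajc22 stood at 1.72 and 1.71 RPKM (WT) against 0.526 and 1.73 RPKM (Naa10-KO), low in replicate 1 alone.

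**Figure D4:**
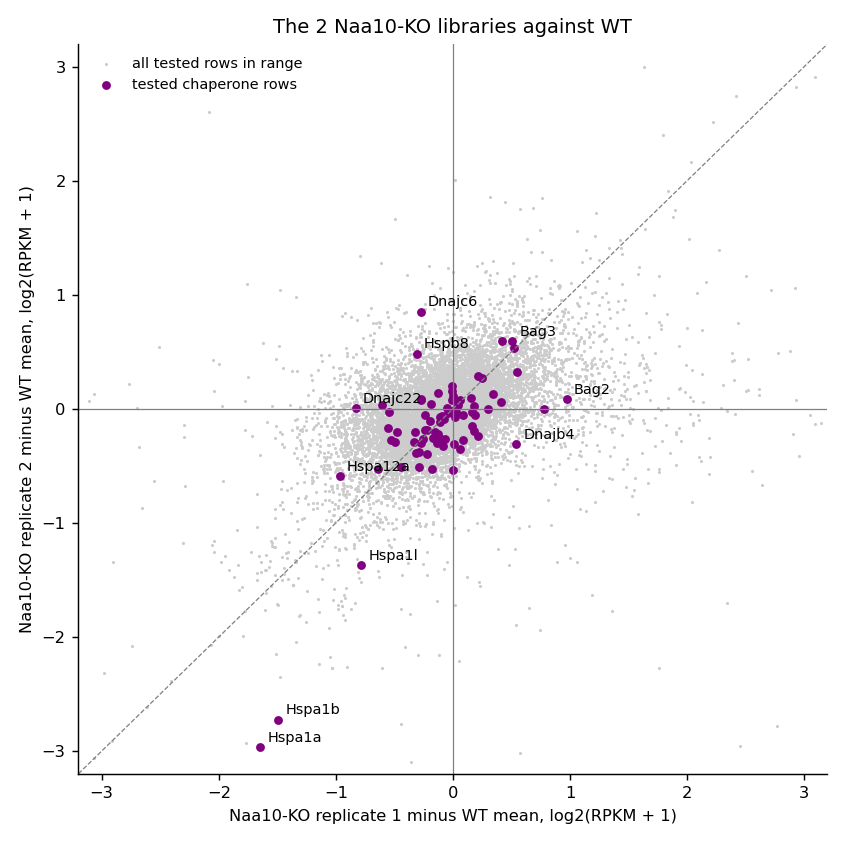
Log2(RPKM + 1) difference from the WT mean in Naa10-KO replicate 1 (horizontal) and replicate 2 (vertical), with grey points for all tested rows within the plotted range of 3.2 on either axis (73 rows lie outside it), purple points for the 79 tested chaperone rows, and a dashed line where the libraries are equal. Most chaperones cluster near 0, and Hspa1a, Hspa1b and Hspa1l lie low on both axes. Hspa1a and Hspa1b lie furthest from the dashed line, and Bag2, Dnajc6 and Hspb8 also lie off it.

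**Figure D5:**
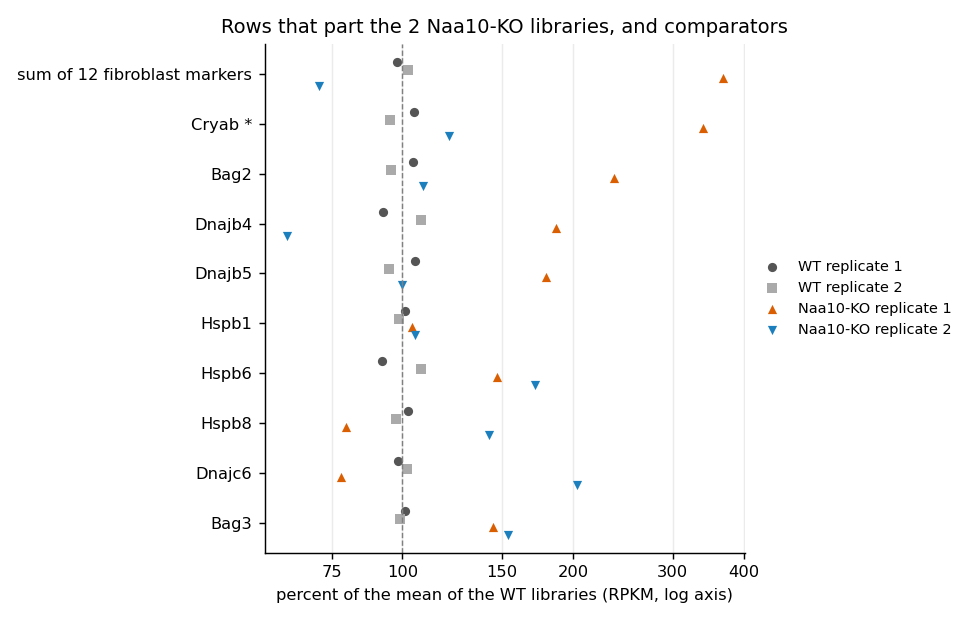
Percent of the WT mean, on a log axis, of chaperone rows that part the Naa10-KO libraries, with Hspb1, Hspb6 and Bag3 as comparators, Cryab (asterisk, outside the rule) and the summed fibroblast markers, 1 point per library. The fibroblast sum, Cryab, Bag2, Dnajb4 and Dnajb5 are highest in replicate 1, Dnajc6 and Hspb8 in replicate 2, and Bag3 is similarly high in both.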

How the data were processed

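RNA of 2 WT and 2 Naa10-KO ESC libraries was measured by poly-dT selected sequencing. Per the file headers, the deposited values are RPKM. Per the submitters' processing notes, Cufflinks and bedtools were among the tools and mm9 was the build; no aligner, annotation or version is named in the sources used here. The tables hold 14099 rows, of which 404 join several symbols and 323 are listed at 0 in some library. Fragment counts were not used here. Steps in the values of short RNAs put the relative depth at 1, 1.02, 1.46 and 1.68 for WT replicates 1 and 2 and Naa10-KO replicates 1 and 2, each the most common ratio over classes of RNA length, found in 9 of 15, 8 of 13 and 5 of 12 classes for the last 3 libraries, so these depths are rough.

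The 11912 rows that reached 1 RPKM in 2 or more libraries entered a two-sided limma test (limma 3.58.1, R 4.3.3) of log2(RPKM + 1) values, with the trend of variance on mean modelled, at an adjusted p under 0.05 over all tested rows, with 2 residual degrees of freedom and 1.94 borrowed across rows. The procedure was tested on simulated data that gave every row and library the same spread. That setting does not cover the larger distance between the Naa10-KO libraries than between the WT libraries. Intervals of 95% come from the same fit and are not adjusted. Families and lists are described by counts and medians. Hspa4 and Hspa4l were placed with Hsph1 as HSP110. Named were fixed family representatives, the extremes of each family, the 6 largest differences in each direction whose genotypes do not overlap, and the 4 members with the largest difference between the Naa10-KO libraries. Dnajb4, Dnajb5, Dnajb11, Dnajc9, Dnajc28, Dnajc5g, Hspb2, Pfdn4 and rows outside the rule were named after their values were seen. Alternatives were other pseudocounts, filters and scalings, a replicate block and leaving out each library. The members and lists were chosen with earlier results of these data known. Of the 82 members, 32 overlap another gene in GENCODE, 26 of them only on the opposite strand. Hspa1a is among these, with Gm20481 over 2225 bases. No strand-specific protocol is stated, so reads in such overlaps cannot be told apart. Protein sequences were not used here.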

Additional observations from a re-analysis of the deposited data

How the results depend on the processing

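With 2 libraries a group, no chaperone passed the threshold under other pseudocounts, filters, scalings or without a WT library. Leaving out Naa10-KO replicate 1 or 2 put 34 and 42 past it, against 0 without either WT library; the lone Naa10-KO library is then assumed to vary like the WT pair. The Naa10 row kept its difference of -1.706 but not its call with small RNA rows and all rows holding a 0 dropped (adjusted p 0.0812), a setting that took all calls in the table from 91 to 0, and leaving out single libraries gave -1.827 to -1.586. The call count over all rows was 40 with no filter on low values, 44 with a replicate block, 12 and 15 without WT replicate 1 and 2, and 4938 and 7081 without Naa10-KO replicate 1 and 2. The median over members was -0.105 at a pseudocount of 0.1, -0.0704 with equal medians and -0.0734 after quantile normalization, and ran from -0.122 to -0.0927 when single libraries were left out. For the HSP70 family it was -0.27 over rows at a mean of 5 RPKM or more.

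Same-numbered libraries did not deviate together (r = -0.215 over rows of the WT and Naa10-KO differences, as a description), so the numbers give no pairing. The replicate block changed no chaperone call (0 past the threshold, 13 at an unadjusted p under 0.05, from 22). The crossed pairing, chosen after seeing the data, gave 2 past the threshold.

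Named members near 0 turned sign: Hsp90ab1 was -0.0202 after quantile normalization, Tcp1 0.0155 after quantile normalization and, with equal medians, Pfdn1 0.0241 and Dnajb11 0.0140. With single libraries left out, the log2 difference ran from -0.54 to 0.0021 for Dnaja1, -0.0544 to 0.0889 for Dnaja2, -0.83 to 0.0060 for Dnajc22, -0.28 to 0.85 for Dnajc6, -0.31 to 0.54 for Dnajb4, -0.23 to 0.21 for Dnajb11 and -0.0862 to 0.0122 for Hsf1. It ran from -0.12 to 0.14 for Hsf2, -0.00748 to 0.0770 for Hsp90ab1, -0.35 to 0.0566 for Hspa4l, -0.31 to 0.49 for Hspb8, -0.27 to 0.0869 for Hspd1, -0.0385 to 0.0374 for Pfdn1 and -0.0704 to 0.0144 for Tcp1. The cause was not tested. Depth could not be stated as counts, which limits what can be said of members near 1 RPKM.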
